A study of Homo sapiens with 34 samples.

Results

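10 genes of the kallikrein locus were followed through 34 RNA-seq libraries of 4 human prostate cell lines: 4 that mark luminal prostate cells (KLK3, KLK2, KLK4 and KLK15) and 6 of basal and other stratified epithelium (KLK5, KLK6, KLK7, KLK8, KLK10 and KLK11). They were chosen by symbol, and all 10 are among the 26336 genes of the count table. The lines were RWPE, a non-tumorigenic prostate epithelium, LNCaP, the study's model of early adenocarcinoma, and the bone metastatic lines VCaP and MDAPCa2a. Cells grew on plastic or on a coating of amorphous calcium phosphate (ACP), with the stated aim of modelling the bone environment. Control medium was keratinocyte serum-free medium with epidermal growth factor and bovine pituitary extract for RWPE, RPMI with 10% fetal bovine serum (FBS) for LNCaP, DMEM:F12 with 10% FBS for VCaP, and HPC1 medium with 20% FBS for MDAPCa2a. The other media held charcoal-dextran-stripped FBS, which is depleted of steroids, alone or with an androgen. The labelled dose of that compound is 100 mM, and its name is DHT in titles and testosterone in condition labels, so it is called androgen here.

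The 17 groups were plastic control, ACP control and ACP androgen for RWPE, and plastic control, plastic stripped, ACP control, ACP stripped and ACP androgen for LNCaP and VCaP. MDAPCa2a had the same groups without ACP control, and its plastic, unlike its ACP, was coated with FNC, an attachment coating. Groups held 2 libraries apart from RWPE ACP androgen (n = 3) and VCaP plastic stripped (n = 1). Each line is 1 cell line, not a panel of donors. The labels do not say that replicates were separate cultures, so p-values measure only the spread between libraries, which may be technical. RWPE was never grown in stripped serum alone, so androgen there was compared with keratinocyte medium and by the general protocol, which gives androgen in stripped serum, these media differ in more than androgen.

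Kallikreins are secreted serine proteases, made as inactive proenzymes that other proteases cut into active form. In the prostate the luminal members are made by secretory cells in response to androgens: KLK3 (prostate-specific antigen) cuts the semenogelins that gel semen, and KLK2, KLK4 and KLK15 are trypsin-like proteases able to activate other kallikreins. The others are best known from skin, where KLK5 and KLK7 cut the junctions that hold shed cells together, and KLK8, KLK10 and KLK11 lie in the same cluster of genes active in stratified epithelium. KLK6 is abundant in brain and also made by many epithelia.

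All 10 genes lie on chromosome 19 within 1 tandem cluster, ordered KLK1, KLK15, KLK3, KLK2, KLKP1, KLK4 and then KLK5 to KLK14. KLK3 and KLK2 are on the forward strand and the other members on the reverse strand. The 250 bases before the RefSeq start of KLK3 (GRCh38.p14, forward strand, chr19:50854665-50854914) and of KLK2 (chr19:50873189-50873438) are shown because VCaP differed in these neighbouring copies. KLK2 was the higher of them in VCaP, and KLK3 was the higher in LNCaP and MDAPCa2a. Capitals mark the match to the consensus androgen response element, AGAACA and TGTTCT with any 3 bases between them, which reads the same on both strands.
KLK3: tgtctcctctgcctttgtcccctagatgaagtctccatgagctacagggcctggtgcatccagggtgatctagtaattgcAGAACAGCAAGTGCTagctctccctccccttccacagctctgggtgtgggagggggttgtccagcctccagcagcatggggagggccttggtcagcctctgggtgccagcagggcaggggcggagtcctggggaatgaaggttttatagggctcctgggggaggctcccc
KLK2: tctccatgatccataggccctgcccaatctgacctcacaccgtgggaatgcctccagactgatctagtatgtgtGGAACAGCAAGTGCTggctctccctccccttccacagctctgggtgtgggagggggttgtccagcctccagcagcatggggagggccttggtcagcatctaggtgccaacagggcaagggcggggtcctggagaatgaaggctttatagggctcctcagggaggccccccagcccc
The element starts 170 bases before the start of KLK3 with 2 mismatches (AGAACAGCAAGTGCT) and 176 bases before that of KLK2 with 3 (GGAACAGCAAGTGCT). Between these elements the only difference was A1G, read from KLK3 to KLK2 and counted from the first base of the element. From the element to the start, 158 of 170 aligned bases were identical (92.9%), with a longest shared run of 80 bases. RefSeq windows of 250 bases before to 50 after a start were matched by symbol for 9 members, all but KLK8. With up to 3 mismatches on either strand, the motif matched no other window of a member, and it matched 10.8% of 35116 RefSeq windows (1.41% with up to 2). AGAACA or TGTTCT alone stood in the KLK3 window and in 14.8% of all windows. TATAAA or TTTATA, its reverse complement, stood in the KLK3 and KLK2 windows, in 1 of the KLK15 windows and in 11.5% of all. A match is a description of letters, not a measured binding site. In the exons, only 0.43% of the 50-base windows of KLK3 and 0.277% of those of KLK2 were shared with each other. The number of reads that could fit both genes was not counted.

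Libraries held 15.4 to 44.8 M counted reads, and levels below are CPM, the reads of a gene per M reads of its library, with library sizes scaled by TMM over all libraries. Replicates had r between 0.986 and 0.996 across genes in log2 CPM. The 8 plastic control libraries stood apart: each held the liver transcript FGG at 1.41 to 2.84 CPM, against 0 in 25 of the other 26 libraries, and they are labelled continuous culture where the rest are labelled day 4. Handling of these libraries and the plastic control condition cannot be told apart in any comparison that uses them. Basal markers KRT5, KRT14, KRT15, TP63, ITGB4 and LAMB3 summed to 3776 to 17232 CPM in RWPE and to at most 60.9 CPM in the other lines. The luminal regulators FOXA1 and HOXB13 were at 367 to 1188 and 444 to 1061 CPM in the 3 cancer lines, and at 12.6 to 20.1 and 3.16 to 8.77 CPM in RWPE. KRT8, used as a luminal keratin, did not set the lines apart (484 to 549 CPM in RWPE and 373 to 755 CPM in the cancer lines, plastic control).

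Luminal and basal kallikreins divided the 4 lines. RWPE held more of the 6 basal members and less of the 4 luminal ones than LNCaP, VCaP and MDAPCa2a, which had next to none of the basal members. Summed over the 4 luminal genes, libraries ran from 8.89 to 34.4 CPM in RWPE, 168 to 4037 in LNCaP, 3186 to 10366 in VCaP and 6093 to 13289 in MDAPCa2a. At the upper end the luminal genes took 1.35% of all reads of an MDAPCa2a library. The 6 basal genes summed to 23.8 to 121 CPM in RWPE and to at most 0.572 CPM elsewhere. In such bulk RNA, fewer cells of a type and less RNA per cell cannot be told apart.

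**Figure D1:**
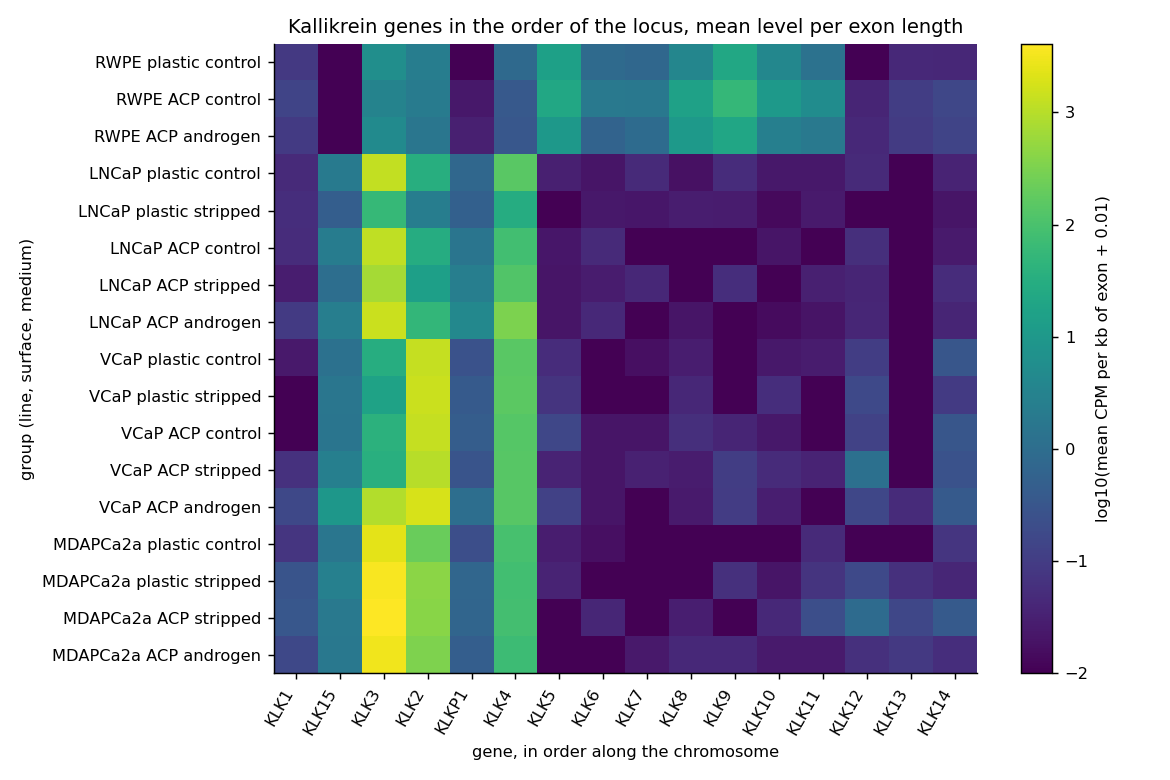
Mean level per exon length, as log10 of CPM per kb of exon plus 0.01, of the 16 genes of the locus (horizontal, in order along the chromosome) in the 17 groups (vertical). Bright cells lie at KLK3, KLK2 and KLK4 in the 3 cancer lines and at KLK5 and KLK8 to KLK10 in the RWPE groups, where KLK3 and KLK2 are also above KLK6 and KLK7 on plastic (5.84 and 2.34 against 0.851 and 0.728 CPM per kb).

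Per kb of exon, which allows genes to be compared, KLK3 led in LNCaP and MDAPCa2a and KLK2 led in VCaP. In plastic control the means were 1239 ± 14.4 CPM per kb (SD, n = 2) for KLK3 and 32.3 ± 3.88 for KLK2 in LNCaP, and 2381 ± 64.3 and 215 ± 20.8 in MDAPCa2a. VCaP had 30.6 ± 12.1 CPM per kb of KLK3 and 1319 ± 288 of KLK2. KLK4 lay between 96.5 and 152 CPM per kb in the 3 lines and KLK15 between 1.22 and 1.98. Among the basal members of RWPE, KLK5 led at 15.7 ± 2.53 CPM per kb in plastic control, ahead of KLK10 (3.99 ± 0.317) and KLK8 (3.77 ± 0.549), with KLK11, KLK6 and KLK7 between 0.728 and 1.31. KLK3 in the same RWPE libraries was at 5.84 ± 3.51 CPM per kb and KLK2 at 2.34 ± 2.87, above several of the basal members.

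KLK3 had 2861 and 2815 CPM in LNCaP plastic control, 50.4 and 89.6 in VCaP, 5348 and 5556 in MDAPCa2a and 7.69 and 19.1 in RWPE. The 4 lines did not overlap in this gene. KLK2 had 90.3 and 107 CPM in LNCaP, 3407 and 4653 in VCaP, 611 and 701 in MDAPCa2a and 0.955 and 13.4 in RWPE, again with no overlap but with VCaP on top. KLK4, a trypsin-like protease that also processes enamel matrix, was nearly level over the cancer lines, at 204 and 205 CPM in LNCaP, 203 and 195 in VCaP and 131 and 128 in MDAPCa2a. KLK15 was low throughout, at 1.64 to 3.32 CPM in these plastic control libraries, and had 0 reads in all 7 RWPE libraries.

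**Figure D2:**
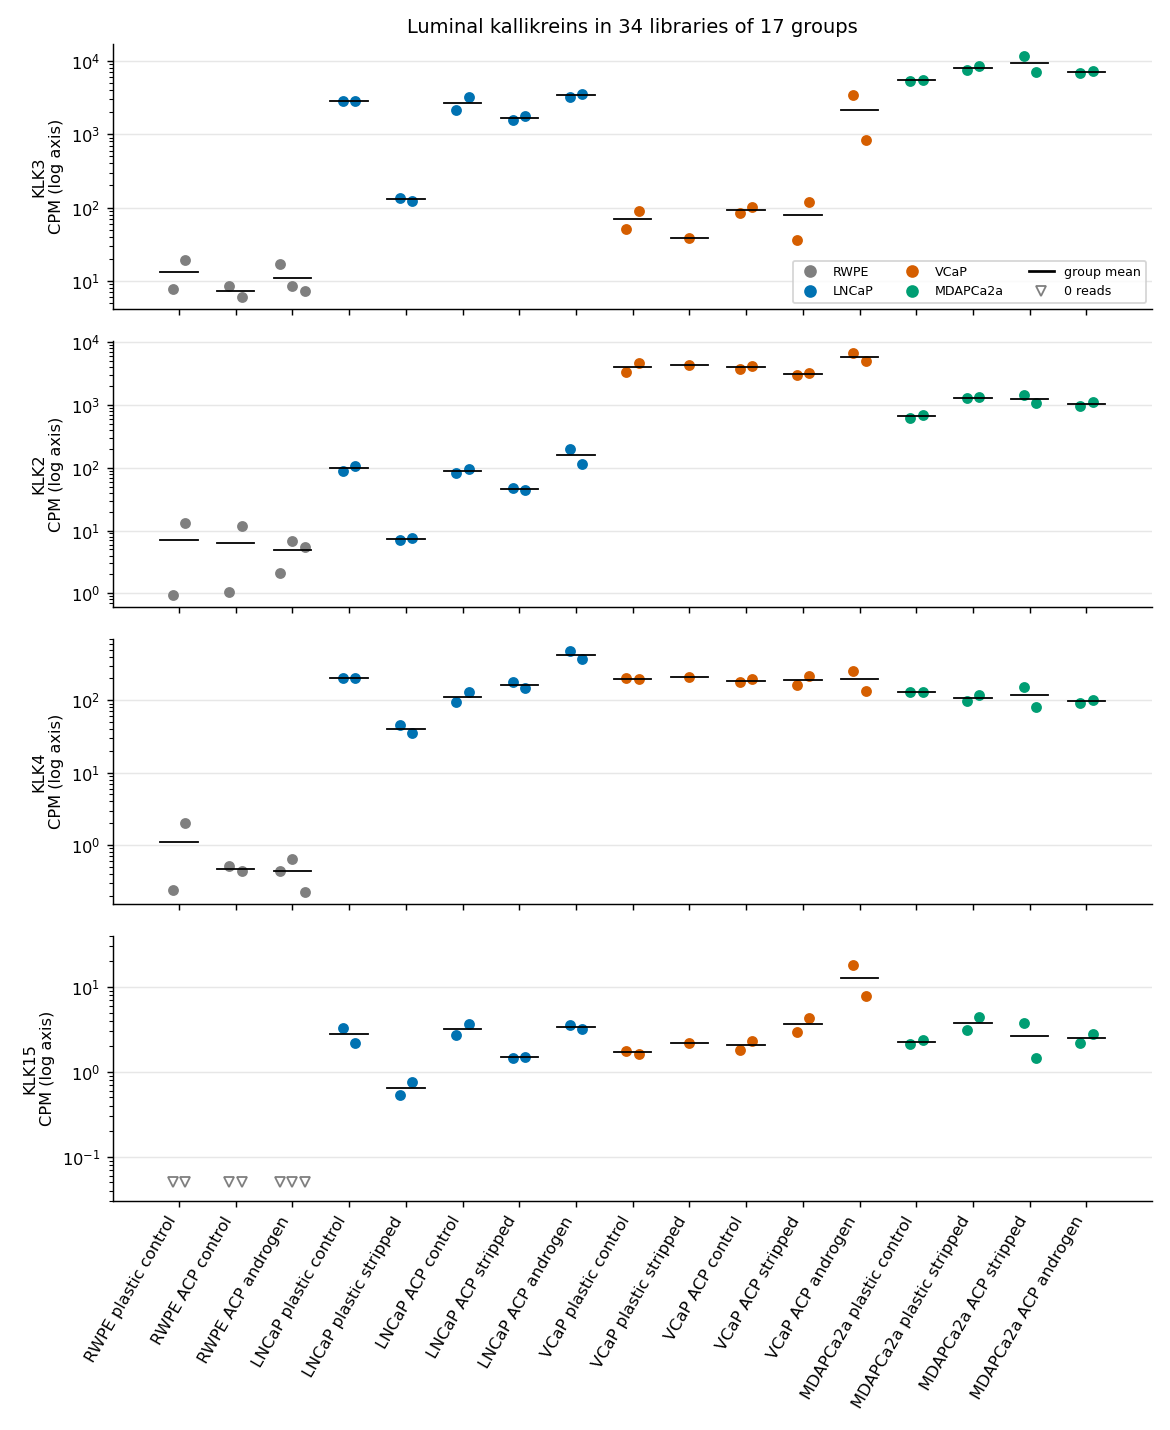
Level of the 4 luminal kallikreins in each library (CPM on a log10 axis, 1 point a library) by group. KLK3 is lowest within LNCaP in plastic stripped, and within VCaP the 2 androgen libraries (3446 and 840 CPM) lie above the other 7.

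Genes were tested with edgeR's quasi-likelihood F test, and a gene was called at a Benjamini-Hochberg adjusted p below 0.05 over all genes tested. Against RWPE in plastic control, all 10 members were called in each cancer line, 4 higher and 6 lower. The lines differ so widely that 57.4% of all genes were called for LNCaP, 62.4% for VCaP and 56.7% for MDAPCa2a, so the sizes are more informative than the calls. On the log2 scale KLK3 was higher by 7.73 ± 0.68 (SE) for LNCaP, 2.39 ± 0.54 for VCaP and 8.67 ± 0.71 for MDAPCa2a. The excess of KLK2 was 3.78 ± 0.74 in LNCaP, 9.13 ± 0.94 in VCaP and 6.51 ± 0.84 in MDAPCa2a. KLK4 was higher by 7.50 ± 0.52, 7.46 ± 0.52 and 6.84 ± 0.51, the most even of the 3 genes. KLK15, set against 3 reads over the RWPE group, was at least 71.4-fold, 43.5-fold and 57.9-fold higher. Adjusted p-values for KLK2 and KLK3 were at most 0.00049. The sizes lean on the second RWPE plastic control library, which held more luminal reads than the first: without it the KLK2 excess in LNCaP was 6.68 and without the first it was 2.79, and every call was kept.

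In ACP androgen, all 10 members were again called in each line, beside 66.9% of all genes in LNCaP, 67.4% in VCaP and 64% in MDAPCa2a. KLK3 exceeded RWPE on the log2 scale by 8.30, 7.64 and 9.35 for the lines in that order, and KLK2 by 5.03, 10.23 and 7.74. The KLK3 value for VCaP was 6.29 without the first VCaP androgen library and 8.40 without the second. KLK4 exceeded RWPE by 9.97, 8.84 and 7.83. KLK15 was at least 62.3-fold, 237-fold and 45.9-fold higher, the VCaP bound over libraries of 18.0 and 7.75 CPM.

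The cancer lines differed among themselves mainly in KLK3 and KLK2. In plastic control, VCaP had less KLK3 than LNCaP (-5.34 ± 0.61, adjusted p = 8.85e-08) and more KLK2 (5.35 ± 0.79, adjusted p = 3.74e-06), the only members called there beside 52.6% of all genes. Against MDAPCa2a, VCaP again had less KLK3 (-6.28 ± 0.64) and more KLK2 (2.62 ± 0.69, adjusted p = 0.00276), 2 of 10 members beside 52.4% of genes. KLK2 was the only member called between MDAPCa2a and LNCaP (2.73 ± 0.70, adjusted p = 0.0028), beside 40.2% of genes. KLK4 and KLK15 were called in none of these 3 comparisons.

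With androgen on ACP the order of KLK2 stayed and KLK3 in VCaP moved next to LNCaP. VCaP against LNCaP had 3 of 10 members called beside 56% of genes: KLK2 higher by 5.20 ± 0.78, KLK15 higher by 1.92 ± 0.42 and KLK4 lower (-1.13 ± 0.38, adjusted p = 0.0146). KLK3 was not called (-0.67 ± 0.51, adjusted p = 0.276), and the value rested on single VCaP libraries: it was -2.02 without the first and 0.00 without the second. MDAPCa2a against LNCaP had 2 members called beside 45.3% of genes, KLK2 higher by 2.70 ± 0.70 and KLK4 lower by -2.13 ± 0.39. VCaP against MDAPCa2a had 4 members called beside 51.4% of genes: KLK3 lower (-1.71 ± 0.52, adjusted p = 0.00816), and KLK2 (2.49 ± 0.69), KLK4 (1.01 ± 0.38) and KLK15 (2.37 ± 0.44) higher. Of these, KLK3 was lost without the second VCaP androgen library (adjusted p = 0.129), and KLK4 without the first VCaP library (0.385) or either MDAPCa2a library (0.129 and 0.091). KLK4 against LNCaP was lost without the second VCaP library (adjusted p = 0.173) or the first LNCaP library (0.0993). The KLK15 excess fell to 1.19 and 1.64 without the first VCaP library.

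The share of KLK2 among the reads of KLK2 and KLK3 together set the 3 cancer lines far apart. It was 2.46 to 5.86% over the 10 LNCaP libraries and 10.3 to 14.5% over the 8 MDAPCa2a libraries. In the 7 VCaP libraries without androgen it was 96.4 to 99.1%, and in the 2 with androgen 65.9 and 85.7%. The 95% Wilson intervals, which cover counting error only, were narrower than the gaps between these lines. Since the genes differ in exon length, a share sets libraries against each other and not the genes.

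**Figure D3:**
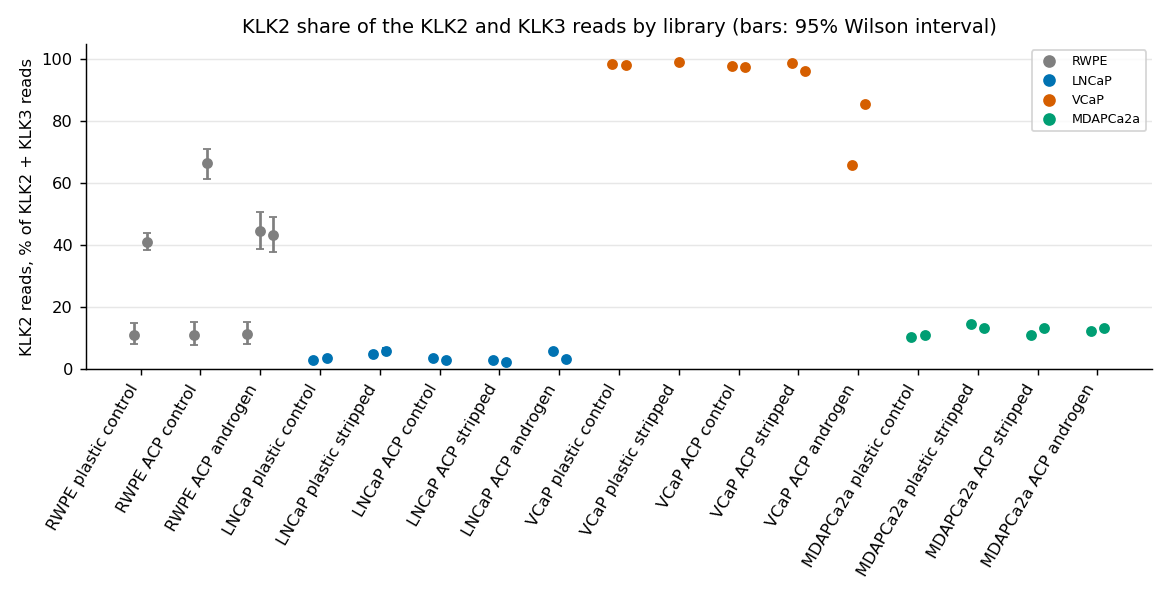
KLK2 reads as a percentage of KLK2 plus KLK3 reads in each library (points, with 95% Wilson intervals) by group. VCaP lies above 60% in every library, while LNCaP and MDAPCa2a stay below 15%.

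The few luminal reads of RWPE did not have 1 fixed composition. KLK3 in RWPE was 7.69 and 19.1 CPM in plastic control, 8.51 and 5.94 in ACP control and 16.8, 8.46 and 7.17 in ACP androgen. KLK2 was 0.955 and 13.4, then 1.06 and 11.8, then 2.13, 6.81 and 5.50 CPM in the same libraries. The KLK2 share was thus near 11% in the first library of each group and between 41.2 and 66.5% in the others. The second plastic control library also held more TMPRSS2 (6.22 against 1.09 CPM) and ACPP (10.4 against 1.41), genes of luminal cells that run at far higher levels in the cancer lines. Whether RNA of another line was present in RWPE libraries was not tested. No luminal member was called in RWPE by surface or by androgen.

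Basal kallikreins in the 27 cancer libraries never exceeded 8 reads a gene. KLK5 had at most 5 reads, KLK6 4, KLK7 5, KLK8 2 and KLK10 4, and between 10 and 18 of the 27 libraries were at 0 for a given gene. The largest count, 8 reads of KLK11 (0.509 CPM), was 5.53% of its highest RWPE level. In plastic control, KLK5, a trypsin-like protease of the skin surface, had 1902 reads over the 2 RWPE libraries and 3 over the 2 LNCaP libraries, a CPM ratio of 761 with an exact 95% interval from 260 to 3691. KLK8 had 426 reads in RWPE and 1 in LNCaP, a ratio of 511 (91.2 to 20231). KLK10 had 1035 reads in RWPE and 0 in MDAPCa2a, at least 312-fold lower there. Differences of these genes among or within the cancer lines rest on a few reads. No basal member was called between cancer lines with edgeR, though DESeq2 called KLK5 higher in VCaP than in MDAPCa2a with androgen on ACP, and all 6 stayed below the count filter in tests within each cancer line. Some counting intervals of single ratios excluded 1: KLK11 in MDAPCa2a on ACP had 1 read with androgen and 11 without (12.4, 1.81 to 535), and KLK5 with androgen on ACP had 8 reads in VCaP and 1 in LNCaP (10.4, 1.39 to 460). These were chosen after their values were seen.

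The 17 groups were ordered by mean CPM for each member. For KLK3 and for KLK2, 8 of the 16 pairs of neighbours in that order overlapped in their libraries, and for KLK4 and KLK15 9 and 11 did. KLK3 ran from MDAPCa2a ACP stripped (11696 and 7005 CPM) through the other MDAPCa2a groups and LNCaP ACP androgen (3249 and 3552) down to the RWPE groups. The lowest cancer group for KLK3 was VCaP plastic stripped (39.0 CPM, 1 library). KLK15 peaked in VCaP ACP androgen. For the 6 basal members the 3 RWPE groups held the top 3 places, RWPE ACP control always first, and 12 to 14 of the 16 pairs of neighbours overlapped. Over the 17 group means in log2 CPM, Pearson's r between KLK2 and KLK3 was 0.40, between KLK4 and KLK15 0.96, and among basal members 0.87 to 0.97, with the contrast between RWPE and the other lines shared by all of these values.

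All 4 luminal kallikreins were lower in LNCaP in stripped serum than in control medium on plastic. The differences for KLK3 and KLK2 were smaller on ACP. On plastic this compares continuous culture with day 4, so handling and serum cannot be told apart, while on ACP both groups were day 4. KLK3 went from 2861 and 2815 CPM in plastic control to 135 and 124 CPM in plastic stripped (-4.41 ± 0.20, adjusted p = 1.96e-06, edgeR). KLK2 went from 90.3 and 107 to 7.03 and 7.60 CPM (-3.71 ± 0.26) and KLK4 from 204 and 205 to 46.0 and 35.4 CPM (-2.28 ± 0.19). KLK15 went from 3.32 and 2.21 to 0.539 and 0.765 CPM (-2.07 ± 0.36, adjusted p = 0.00502). The 4 luminal genes were thus called beside 9.45% of all genes. Their groups did not overlap, and the share of all genes without such overlap was not counted. KLK15 lost its call without the first control library (adjusted p = 0.0699) or the first stripped library (0.0814), and the other 3 kept theirs without any 1 library. Of 9 other androgen targets of luminal cells, 6 fell and 1 (ACPP) rose.

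On ACP, stripped serum left KLK3 at 1560 and 1776 CPM against 2142 and 3242 in ACP control (-0.70 ± 0.17, adjusted p = 0.0412). KLK2 had 46.8 and 44.8 CPM against 82.4 and 95.4 (-0.97 ± 0.23, adjusted p = 0.034). These 2 members were called beside 5.37% of genes, and both calls are fragile: neither gene kept its call in the fit of all lines, KLK2 lost it without any 1 of the 4 libraries and KLK3 without any but the first control library (adjusted p up to 0.292). KLK4 (176 and 149 against 95.9 and 129 CPM, 0.52 ± 0.19, adjusted p = 0.136) and KLK15 (-1.12 ± 0.33, adjusted p = 0.077) were not called.

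Set side by side in stripped serum, LNCaP on ACP had more of the luminal kallikreins than on plastic. KLK3 was higher by 3.73 ± 0.19 (adjusted p = 8.68e-06), KLK2 by 2.69 ± 0.25 and KLK4 by 2.03 ± 0.19 (both adjusted p = 0.000306). These 3 members were called beside 6.12% of genes, none lost its call without any 1 library, and the plastic control libraries take no part here. KLK2 missed the threshold in the fit of all lines (adjusted p = 0.0551). KLK15 had 1.46 and 1.51 against 0.539 and 0.765 CPM and was not called (1.26 ± 0.37, adjusted p = 0.065). In control medium the surfaces differed in KLK4 alone, 95.9 and 129 CPM on ACP against 204 and 205 on plastic (-0.77 ± 0.19, adjusted p = 0.0257, 1 member beside 12.6% of genes). That call was lost without either plastic library or the first ACP library (adjusted p 0.149 to 0.172), and in the fit of all lines (0.173). It also rests on plastic control, whose handling cannot be told apart from the surface.

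The difference between the serum effects on both surfaces was tested itself, as an interaction. It was called for KLK3 (3.70 ± 0.25, adjusted p = 0.000171), KLK4 (2.80 ± 0.27, adjusted p = 0.00116) and KLK2 (2.74 ± 0.34, adjusted p = 0.00469), and not for KLK15 (0.95 ± 0.48, adjusted p = 0.629). Only 0.307% of genes were called in this test, 45 in all, and 3 of the 4 luminal kallikreins were among them. KLK2 lost its call without the first plastic stripped library (adjusted p = 0.0711) and in the fit of all lines (0.401). The interaction uses the plastic control libraries, and the comparison in stripped serum above does not.

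In the bone metastatic lines the same changes of serum and surface moved no member past the threshold with edgeR. In VCaP, no member was called for stripped serum on plastic (beside 0.89% of genes) or on ACP (0.82%), or for ACP against plastic in control medium (0.0448%) or stripped serum (0%). No member of VCaP had an unadjusted p under 0.05 in these 4 comparisons, and DESeq2 also called none. Both comparisons with plastic stripped have 1 library in that group, assumed to vary like the others, so a missing call there is no sign of an unmoved gene. Across all genes, 511 had an unadjusted p under 0.05 for surface in stripped serum, where edgeR called none and plastic had 1 library. KLK3 in VCaP stayed low, at 39.0 CPM in plastic stripped, 84.8 and 102 in ACP control and 36.1 and 120 in ACP stripped. KLK2 stayed high, between 2985 and 4653 CPM in all 7 libraries without androgen.

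In MDAPCa2a, stripped serum on plastic gave KLK2 at 1275 and 1324 CPM against 611 and 701 in plastic control. Plastic control was again continuous culture, so handling and serum cannot be told apart. The groups did not overlap, and the rise was not called (1.02 ± 0.21, adjusted p = 0.0516). No member was called there with edgeR, beside 1.58% of genes, and DESeq2 called KLK2 (adjusted p = 0.000174). KLK3 and KLK2 had unadjusted p under 0.05. KLK3 stood at 7496 and 8665 CPM against 5348 and 5556. For ACP against plastic in stripped serum no member was called (beside 0.00734% of genes), none had an unadjusted p under 0.05, and DESeq2 called none. The first ACP stripped library had the highest KLK3 of all 34 (11696 CPM, against 7005 in the other). Its KLK15 (3.82 against 1.45 CPM) and KLK4 (152 against 80.8 CPM) were also above those of its replicate.

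**Figure D4:**
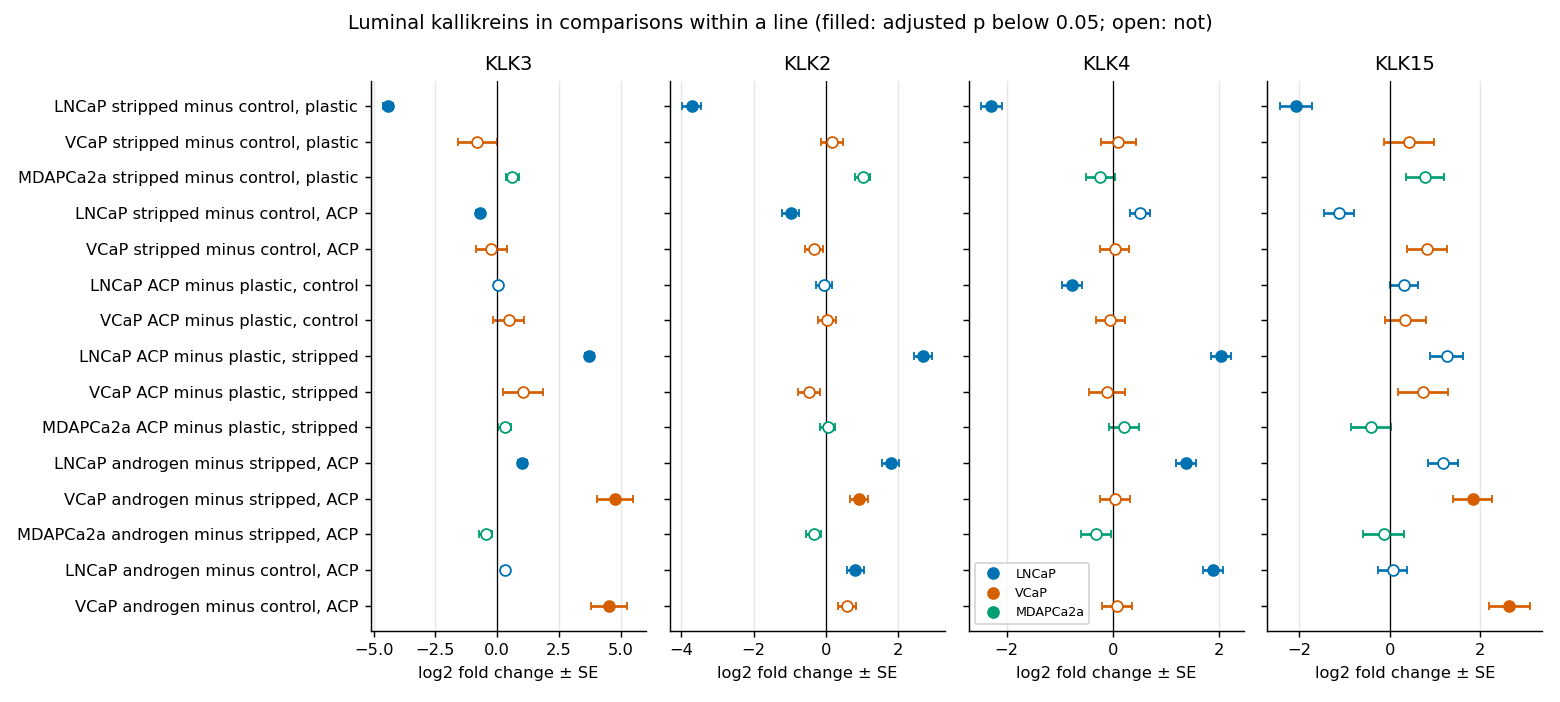
Log2 fold change ± SE of the luminal kallikreins in 15 comparisons within LNCaP, VCaP and MDAPCa2a (filled: adjusted p below 0.05, edgeR). Horizontal scales differ between the 4 genes. KLK3 shows its largest fall in LNCaP with stripped serum on plastic (-4.41) and its largest rise in VCaP with androgen (4.77).

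Androgen added to stripped serum on ACP raised luminal kallikreins in LNCaP and VCaP. In LNCaP, KLK3 went from 1560 and 1776 to 3249 and 3552 CPM (1.01 ± 0.17, adjusted p = 0.00722), KLK2 from 46.8 and 44.8 to 202 and 116 (1.78 ± 0.23, adjusted p = 0.00143) and KLK4 from 176 and 149 to 485 and 366 (1.38 ± 0.19, adjusted p = 0.00184). KLK15 had 3.59 and 3.20 CPM against 1.46 and 1.51 and just missed the threshold (1.18 ± 0.33, adjusted p = 0.0506). The 3 members were called beside 7.73% of genes. KLK3 lost its call without the first stripped library (adjusted p = 0.0822), and in the fit of all lines KLK3 (0.309) and KLK2 (0.145) were not called. Of the 9 other androgen targets, 7 rose, with STEAP4, a metalloreductase, changing most (4.84 ± 0.69).

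In VCaP, KLK3 went from 36.1 and 120 CPM to 3446 and 840 CPM with androgen (4.77 ± 0.74, adjusted p = 0.00384). The 2 androgen libraries differ by several fold, yet both lie far above the 7 other VCaP libraries. Without the first androgen library the change was 3.44, and without the second stripped library it was 5.89, with the call kept. KLK15 had 18.0 and 7.75 CPM against 2.93 and 4.30 (1.83 ± 0.44, adjusted p = 0.0202) and KLK2 6649 and 5015 against 2985 and 3223 (0.91 ± 0.25, adjusted p = 0.0334). KLK4 did not move past the threshold, at 253 and 136 CPM against 162 and 216. These 3 of 10 members were called beside 17.5% of genes. KLK2 lost its call in the fit of all lines (adjusted p = 0.329) and without any 1 of the 4 libraries (0.0693 to 0.151), and KLK15 without the first stripped (0.114) or the first androgen library (0.153, log2 change 1.12). Of the 9 other androgen targets 6 rose, STEAP4 again most (6.83 ± 1.19). Markers of other cell types moved beside these results: the 5 liver markers summed to 268 to 322 CPM in VCaP ACP stripped and 15.8 to 65.3 with androgen, nearly all of it ALB, the 1 of 4 tested that was called lower, with FGG at 0 in both groups. The 5 fibroblast markers summed to 40.4 to 161 and 7.36 to 8.41 CPM, and 2 of 5, DCN and LUM, were called lower. Their part in the kallikrein values was not tested.

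In MDAPCa2a no member was called with androgen, and 0% of genes were. KLK3 was at 6772 and 7286 CPM against 11696 and 7005, KLK2 at 957 and 1113 against 1437 and 1085, KLK4 at 92.6 and 101 against 152 and 80.8, and KLK15 at 2.18 and 2.78 against 3.82 and 1.45. The groups overlapped in all 4 genes. No member had an unadjusted p under 0.05, DESeq2 called none of them, and 236 of all genes had an unadjusted p under 0.05 with edgeR. None of the 9 other androgen targets was called.

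Against ACP control rather than stripped serum, androgen in LNCaP raised KLK4 (95.9 and 129 to 485 and 366 CPM, 1.89 ± 0.19, adjusted p = 0.000365) and KLK2 (0.81 ± 0.23, adjusted p = 0.036), 2 members beside 15.1% of genes. KLK2 lost this call without either control library (adjusted p = 0.155 and 0.0635) or the first androgen library (0.336), and in the fit of all lines (0.494). KLK3, at 3249 and 3552 against 2142 and 3242 CPM, was not called. In VCaP the same comparison raised KLK3 (4.54 ± 0.73, adjusted p = 0.0101) and KLK15 (2.64 ± 0.45, adjusted p = 0.0129), beside 5.99% of genes. Leaving out either ACP control library ended both calls (adjusted p 0.0901 to 0.117), and leaving out the first androgen library ended that of KLK15 (0.0968). These comparisons share their androgen libraries with the ones above.

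Whether the androgen effect differed between lines was tested directly in the fit of all libraries. For KLK3 it was larger in VCaP than in LNCaP by 3.75 ± 0.74 (adjusted p = 0.00235) and larger than in MDAPCa2a by 5.19 ± 0.76 (adjusted p = 0.000211). KLK3 was the only member called in either, beside 10.9% and 7.86% of genes. Without the first VCaP androgen library the differences were 2.40 and 3.84, and without the second VCaP stripped library 4.87 and 6.30, all called. For KLK4 (-1.35 ± 0.54, adjusted p = 0.111) and KLK2 (-0.88 ± 0.93, adjusted p = 0.613) the difference between VCaP and LNCaP was not called. KLK15 in VCaP against MDAPCa2a was not called either (1.91 ± 0.62, adjusted p = 0.0615). Between MDAPCa2a and LNCaP no member was called with edgeR or DESeq2, beside 1.12% of genes, and KLK2 and KLK4 had unadjusted p under 0.05. All 3 differences share the androgen and stripped libraries of their lines.

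The basal kallikreins of RWPE were highest on ACP in control medium. KLK8, a trypsin-like protease of skin and brain, went from 4.93 and 6.07 CPM on plastic to 24.7 and 22.4 CPM on ACP (2.12 ± 0.47, adjusted p = 0.0347). KLK11 went from 2.04 and 2.17 to 9.19 and 7.65 CPM (2.02 ± 0.43, adjusted p = 0.0326). These 2 of 10 members were called beside 4.16% of genes. The other 4 basal members were not called. In each of them both ACP libraries lay above both plastic libraries, and how many of all genes separate in this way was not counted. KLK10, a family member known for loss in tumours, had 40.4 and 27.8 against 12.6 and 14.1 CPM (1.37), and KLK5 39.4 and 31.9 against 21.8 and 27.4 (0.56). KLK7, the chymotrypsin-like enzyme of skin shedding, had 3.92 and 3.41 against 1.03 and 2.02 CPM (1.28), and KLK6 3.54 and 3.70 against 1.11 and 2.25 (1.13).

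The KLK8 and KLK11 calls were lost without any 1 of the 4 libraries, with changes of 1.98 to 2.28 and 1.88 to 2.13 and adjusted p up to 0.248. This comparison uses the plastic control libraries, whose handling cannot be told apart from the surface. Markers of squamous cells moved beside it: the 7 genes summed to 63.9 to 84.5 CPM on plastic and 197 to 243 on ACP, 1 of 6 tested (KRT10) was called higher, and SPRR1B, a cornified envelope protein, had 30.8 and 28.7 against 8.01 and 11.5 CPM. Of the 6 basal markers only KRT15 was called (237.9 and 203.7 against 23.3 and 30.3 CPM). The others did not move together: KRT5 and KRT14 were higher in both ACP libraries than on plastic, and TP63 overlapped. ITGB4 (958 and 724 against 1850 and 1668 CPM) and LAMB3 (338 and 254 against 425 and 423 CPM) were lower. The part of these cell states in the kallikrein values was not tested.

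**Figure D5:**
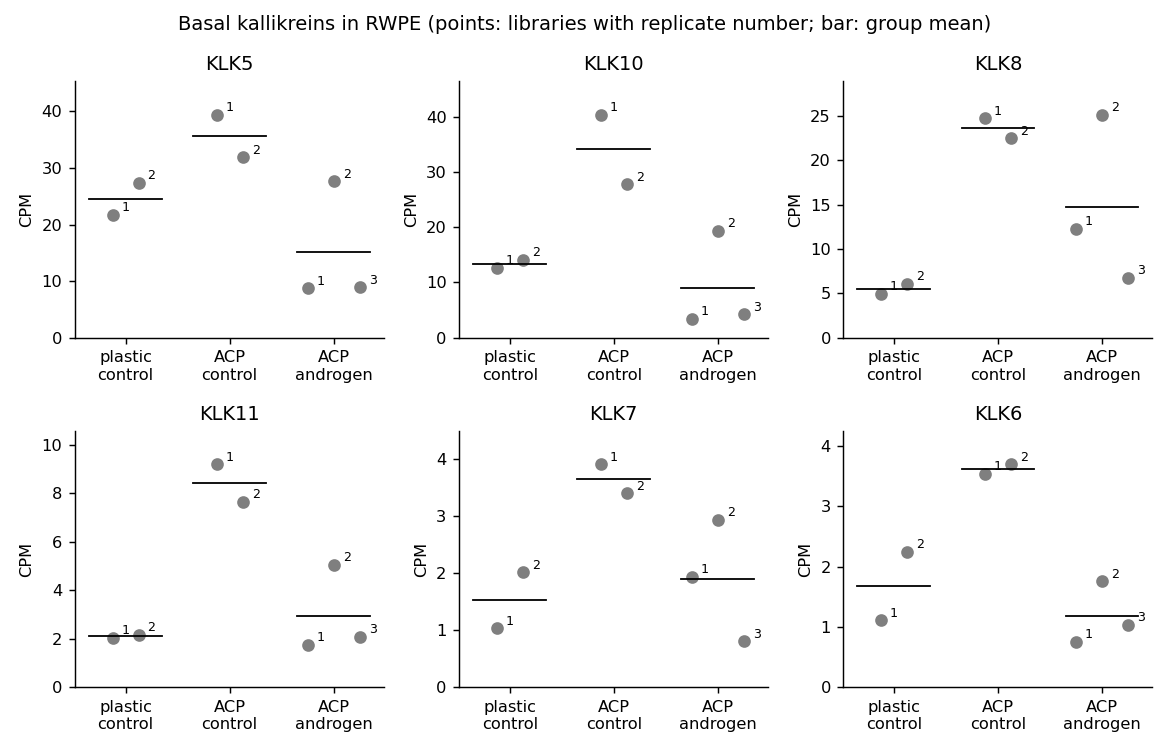
Level of the 6 basal kallikreins in the 7 RWPE libraries (CPM, 1 point a library) in plastic control, ACP control and ACP androgen. For every gene both ACP control libraries lie above both plastic control libraries, and the second of the 3 androgen libraries is the highest of its group.

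On ACP, androgen medium gave RWPE less of 3 basal kallikreins than keratinocyte medium. KLK10 had 3.38, 19.3 and 4.24 CPM against 40.4 and 27.8 (-1.90 ± 0.56, adjusted p = 0.0396), KLK6 0.751, 1.76 and 1.04 against 3.54 and 3.70 (-1.59 ± 0.42, adjusted p = 0.0301) and KLK11 1.75, 5.05 and 2.08 against 9.19 and 7.65 (-1.49 ± 0.39, adjusted p = 0.028). These 3 genes were called beside 19.1% of genes. In each of them the groups did not overlap, and the share of all genes without such overlap was not counted. KLK5 had 8.70, 27.7 and 8.89 against 39.4 and 31.9 CPM and was not called (-1.22 ± 0.42, adjusted p = 0.0628). KLK7 (-0.95) and KLK8 (-0.66) were not called, and KLK8 overlapped, with 12.3, 25.1 and 6.72 against 24.7 and 22.4 CPM.

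The second androgen library stood above the other 2 in all 6 genes. Without it KLK5, KLK6, KLK8, KLK10 and KLK11 were called, with KLK10 at -3.13 and KLK5 at -2.00. Without either control library or without the first androgen library none of KLK6, KLK10 and KLK11 was called (adjusted p 0.0673 to 0.307). KLK6 was not called in the fit of all lines (adjusted p = 0.068), nor KLK10 by DESeq2 (0.0848), while KLK5 was called by DESeq2 (0.0161), without the count filter (0.00922) and with a replicate block (0.0183). Basal markers moved in the same direction: 4 of 6 were called lower, and KRT5, the basal keratin, had 2348, 6631 and 3060 CPM against 10152 and 8094. KRT14 had 912, 4174 and 689 against 5341 and 4224 CPM, with the same library on top. The part of a change in basal cell state in the kallikrein values was not tested. By the protocol the androgen medium holds stripped serum and the control medium holds none, so androgen and medium cannot be told apart here.

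Of the 6 other genes of the locus, KLK9 followed the basal members in RWPE, with 17.3 ± 0.479 CPM (SD, n = 2) on plastic, 40.7 ± 8.27 (n = 2) in ACP control and 15.7 ± 8.34 (n = 3) in ACP androgen (androgen minus control -1.35, adjusted p = 0.0234, edgeR). Every exon base of KLK9 is shared with a readthrough gene on the same strand, so reads of KLK9 cannot be told apart from that transcript. For KLK8 this holds only for reads within 416 of its 1460 exon bases. KLK5, KLK6 and KLK10 overlap antisense genes over 202, 401 and 240 exon bases, and the use of strand in counting is not given in the sources used here. KLKP1, a pseudogene between KLK2 and KLK4, was at 0.77 to 8.85 CPM in LNCaP and was called higher on ACP than on plastic in stripped serum (2.34) and with androgen against control (1.42). KLK12 had 33 reads in the first MDAPCa2a ACP stripped library and 0 in the second, and 65 against 2 reads in the second and first VCaP ACP stripped libraries. Of 5 genes flanking the locus, C19orf48 moved with KLK3 in LNCaP: it was called lower with stripped serum on plastic (-1.37 ± 0.14) and on ACP (-0.81 ± 0.14) and higher with androgen (0.67 ± 0.14).

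Genes acting on kallikreins were described from short lists. Of 7 inhibitors, SERPINA3 (antichymotrypsin, which binds KLK3 in serum) changed most. In VCaP it went from 1.46 to 3.85 CPM in ACP stripped to 107 to 275 CPM with androgen (6.15 ± 0.71, adjusted p = 0.00126, edgeR). It was the only inhibitor called there of 5 tested, beside 17.5% of all genes. In LNCaP on plastic, SERPINA3 fell with stripped serum (-2.64 ± 0.45), 1 of 4 tested, beside 9.45% of all genes. SPINK5, the skin inhibitor of KLK5 and KLK7, had 1.63 to 6.67 CPM in RWPE, 3.50 to 8.34 in VCaP, 2.56 to 6.87 in MDAPCa2a and at most 0.0422 in LNCaP, and was not called in any comparison within a line. SPINT1, an inhibitor of membrane proteases, was the only inhibitor called in RWPE with androgen (-0.56 ± 0.17, adjusted p = 0.0491, edgeR), beside 19.1% of all genes.

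Of 5 activators, TMPRSS2, a membrane serine protease, was the only one called in LNCaP and VCaP. It fell with stripped serum in LNCaP on plastic (-2.79 ± 0.25) and on ACP (-1.95 ± 0.24) and rose with androgen in LNCaP (2.27 ± 0.24) and VCaP (2.91 ± 0.37). The shares of all genes called in these comparisons were 9.45, 5.37, 7.73 and 17.5%, in that order. PLAU, the urokinase gene, was at 51.4 to 126 CPM in RWPE and at most 2.70 CPM in the other lines. In RWPE with androgen, PLAU (-0.89 ± 0.23) and ST14, the matriptase gene (-0.92 ± 0.18), were called lower, 2 of 3 tested, beside 19.1% of all genes. Among 10 substrates, SEMG1 never exceeded 1.05 CPM. IGFBP3, a growth factor binding protein cut by KLK3, fell with androgen in VCaP from 195 to 1869 CPM down to 9.22 to 13.1 CPM (-6.53 ± 1.16, adjusted p = 0.00643) and rose in LNCaP (2.49 ± 0.52, adjusted p = 0.0172). The difference of these androgen effects was called (-9.03 ± 1.17, adjusted p = 5.39e-05).

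Among 17308 other genes, those whose log2 CPM over the 17 group means was most like KLK3 were ABCC4 (r = 0.97), UAP1 and SLC25A20 (both 0.96), and SLC16A6 and CDYL2 (both 0.95). Most like KLK5, the basal member of highest mean level, were SYT8 (0.99), and MIR205HG, PADI3, FAM46B and FHL2 (all 0.98). These are descriptions over groups that fall into 4 lines, so for KLK5 they rest on the contrast of RWPE with the rest. Ranked by Spearman's rho instead, 1 of the 5 genes for KLK3 and 0 of the 5 for KLK5 were named again. ABCC4, a transporter of organic anions, was called in LNCaP in the same directions as KLK3: lower with stripped serum on plastic (-1.50 ± 0.16), higher on ACP in stripped serum (1.58 ± 0.16) and higher with androgen (0.58 ± 0.16). The shares of all genes called there were 9.45, 6.12 and 7.73%, in that order. ABCC4 was picked for its likeness to KLK3 over means that include these LNCaP groups, so the shared directions are no separate evidence.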

How the data were processed

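RNA was sequenced in 34 libraries of 4 prostate cell lines. The authors deposited 1 table of whole-number read counts per gene, not normalized, per the labels. The submitters' processing notes name STAR, HTSeq and hg19, with no versions; the use of strand is not given in the sources used here. Group and library came from titles and labels. Positions and lengths are from GRCh38 annotation and were not placed on the hg19 counts.

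Genes were tested with edgeR 4.0.16 in R 4.3.3 (TMM, filterByExpr with a minimum count of 10, quasi-likelihood F test), tested on simulated data, with Benjamini-Hochberg adjusted p below 0.05. Comparisons within a line used that line's libraries, and others all 34. A group at 0 reads was set to 3 reads. The 10 members and the gene lists were chosen with earlier results of these data known. Members were all described; the 5 genes most like KLK3 and KLK5 were named by correlation. List members named are those called or with the largest rise or fall, and others were chosen after their values were seen. 1 listed gene is not reported here. Alternatives were RLE size factors, no count filter, DESeq2 1.42.0, a fit of all lines, a log2 change of at least 1, a replicate block and leaving out each library.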

Additional observations from a re-analysis of the deposited data

Results flagged for a closer look

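The effect of stripped serum in LNCaP differed between surfaces for 3 luminal kallikreins by a test of the difference itself (edgeR's quasi-likelihood test): KLK3 by 3.70 (adjusted p = 0.000171), KLK2 by 2.74 (adjusted p = 0.00469) and KLK4 by 2.80 (adjusted p = 0.00116) on the log2 scale, ACP minus plastic. Each gene was higher in both ACP stripped libraries than in both plastic stripped libraries, and how many of all genes separate in this way was not counted. The test of the difference uses the plastic control libraries, whose handling cannot be told apart from their condition. In that test KLK2 lost its call without the first plastic stripped library (adjusted p = 0.0711) and in the fit of all lines (0.401).

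The effect of androgen on KLK3 differed between lines by the same kind of test. It was larger in VCaP than in LNCaP by 3.75 (adjusted p = 0.00235) and larger in VCaP than in MDAPCa2a by 5.19 (adjusted p = 0.000211), and both values share the 4 VCaP libraries.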

How the results depend on the processing

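All 10 members stayed called against RWPE under every setting run, and counts between cancer lines stayed within 1.5 times. Other counts of called members changed. Without the count filter, 4 in place of 2 were called for stripped serum on ACP in LNCaP, 1 in place of 0 on plastic in MDAPCa2a, and for differences of androgen effects 2 in place of 1 (VCaP against LNCaP, and VCaP against MDAPCa2a) and 1 in place of 0 (MDAPCa2a against LNCaP). DESeq2 called 1 in place of 0 for stripped serum in MDAPCa2a and 2 in place of 1 for VCaP against MDAPCa2a. In the fit of all lines 0 remained for stripped serum on ACP and for surface in control medium in LNCaP, 1 in place of 3 for androgen against stripped serum and 1 in place of 2 for androgen against control. With a log2 change of at least 1 these LNCaP counts were 0, 0 and, for androgen against control, 1. With a replicate block, 5 in place of 2 basal members were called in RWPE for surface. Correlations of same-numbered deviations over 0.1 were 3 of 10 in LNCaP, 1 of 6 in MDAPCa2a, 0 of 3 in RWPE and 2 of 6 in VCaP. The highest was 0.42, for ACP stripped and ACP androgen in MDAPCa2a. The lowest was -0.34, for plastic stripped and ACP stripped in that line. Replicate numbers thus did not pair the libraries throughout, but pairing in some groups is not excluded.

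Leaving out 1 library gave 0 to 1 members for stripped serum on ACP in LNCaP, 0 for surface in RWPE, 0 to 1 for surface in control medium in LNCaP, 2 to 3 for androgen in LNCaP, 1 to 2 for androgen in VCaP, 0 to 5 in RWPE, 1 to 2 and 0 to 2 for androgen against control in LNCaP and VCaP, and 1 to 2, 0 to 1 and 1 to 2 for the differences of androgen effects (VCaP against LNCaP, MDAPCa2a against LNCaP, VCaP against MDAPCa2a). KLK3 in VCaP against LNCaP with androgen reversed, to 0.0008, without the second VCaP androgen library, and was -2.02 without the first. Causes were not tested beyond fewer libraries. Values for single genes were followed under alternatives for members called in the main fit and for some uncalled members whose change is given above. Of these values 1007 kept direction and call, 62 lost a call, 24 gained one and 1 reversed. The 1007 also include a value for the list of genes most like KLK3. Calls gained by other members, such as that of KLK5 with DESeq2, are not in these counts. Basal genes had at most 8 reads in any cancer library, so their ratios among those lines rest on few reads.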
